A study of Mus musculus with 6 samples.

Results

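The genes described here encode the growth regulator Myc, members of the retinoblastoma and E2F families, and subunits of the DREAM complex, and they were measured in young and aged mouse brain by sequencing of messenger RNA. They were chosen by symbol: Myc, Rb1 and Mybl2, with any symbol that begins with E2f, Rbl or Lin followed by a digit. This gave 8 of the 88 genes in the authors' table of cellular senescence genes, namely Myc, Rb1, Rbl1, E2f2, E2f4, Lin37, Lin54 and Mybl2. The labels give 3 young and 3 aged brain samples, each with the cell type neuroblast, an immature neuron that migrates. They name neither an age in weeks or months nor a strain, genotype or transgene for either group. The same tamoxifen injection, with natural killer cells as its readout, is written for all 6 samples, and the labels do not say that it applies to the sequenced RNA or whether samples were pooled or came from separate animals. The p-values below therefore rest on differences between these libraries that may be technical only.

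The aged mean exceeded the young mean for every gene of the table, so the sign of each member's difference in means was set by how the table was made and is not a result. The summed signal of the table ran from 1900 to 2992 across the libraries, and the sequencing depth is unknown. None of 30 markers of neuroblasts, neural stem cells, mature neurons, glia, endothelium, choroid plexus, natural killer cells or dividing cells was among the 88 genes, so the neuroblast label was not checked here. Aged replicate 1 was unlike the other libraries, and the tests, ratios, nearest genes and replicate spreads below are given with and without it. In tissue RNA, fewer cells that express a gene and less of its RNA per cell cannot be told apart.

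Retinoblastoma-family proteins, called pocket proteins, bind E2F transcription factors and hold back genes needed for DNA replication and division. Cyclin-dependent kinases release that hold by phosphorylating the pocket proteins, and Myc is a transcription factor that drives growth and entry into the cell cycle. In resting cells a pocket protein, E2F4 and the MuvB core, which contains LIN37 and LIN54, form the DREAM complex, a repressor of cell cycle genes, and in dividing cells the MuvB core binds B-Myb, the product of Mybl2, instead. In the adult brain most neurons have left the cell cycle for good, and division is largely limited to neural progenitors and glia.

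E2F factors and LIN54 bind DNA, and several of the genes that encode this machinery carry the letters of its motifs at their own start sites. RefSeq promoter windows of 300 bases (250 before and 50 from the start site on, GRCm38.p6) were matched by gene ID for 5 members, E2f2, Rbl1, Lin37, Lin54 and Mybl2, with 7 windows in all. They were searched on both strands for the E2F motif TTNNCGC with each N either C or G, for the cell cycle genes homology region (CHR, the motif that LIN54 contacts) written as TTTGAA or TTCGAA, and for the E-box CACGTG read by Myc. The motifs do not share letters in these windows, and TTCGAA and CACGTG read the same on either strand. The E2F motif was found at 1 start of E2f2 and in the Rbl1 window, and in 9.57% of all 32851 windows of the RefSeq table. The CHR was found in the Lin37 window, at both starts of Lin54 and at the other start of E2f2, and in 19.2% of all windows. The E-box was found at 1 start of Lin54, and in 7.15% of all windows. None of the motifs as written was found in the Mybl2 window. That window holds TTGGCGG, which differs from the E2F motif as written in its last letter only. The same letters are in an E2f2 window and a Lin54 window, and on the other strand in the Lin37 window. Their share over all windows was not counted. The search took exact letters, so it does not exclude other forms of these sites. A match describes letters only and was not tested for binding. The stretches with the E2F motif and with 1 CHR each of Lin37 and Lin54 are shown. E2F factors are known to read the E2F motif and LIN54 the CHR, and whether any of them binds these stretches was not tested. The motif is in capitals, with up to 60 bases on each side and the gene's strand 5′ to 3′. The motif begins at base 41 after the E2f2 start, 17 bases before the Rbl1 start, 197 bases before the Lin37 start and at base 41 after 1 Lin54 start. The other Lin54 start has TTTGAA 162 bases before it and TTCGAA at base 30 after it, which are not shown.
E2f2, E2F motif, chr4:136172254-136172323, + strand: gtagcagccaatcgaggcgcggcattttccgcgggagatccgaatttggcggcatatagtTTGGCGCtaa
Rbl1, E2F motif, chr2:157204485-157204611, - strand: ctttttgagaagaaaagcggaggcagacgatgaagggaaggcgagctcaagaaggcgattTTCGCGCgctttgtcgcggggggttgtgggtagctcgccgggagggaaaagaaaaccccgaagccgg
Lin37, CHR, chr7:30559778-30559896, - strand: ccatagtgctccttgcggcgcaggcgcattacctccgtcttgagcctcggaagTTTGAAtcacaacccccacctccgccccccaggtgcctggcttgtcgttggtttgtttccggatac
Lin54, CHR, chr5:100500590-100500659, - strand: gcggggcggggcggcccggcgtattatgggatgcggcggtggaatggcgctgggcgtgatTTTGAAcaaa

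The first question was how each gene stood in the young and aged libraries. Values are the authors' expression signal, whose unit is not named, so signals are compared between samples for 1 gene and not between genes. Myc (Entrez gene 17869) was listed at 4.73, 4.51 and 3.97 in young replicates 1 to 3 and at 22.39, 2.83 and 1.67 in aged replicates 1 to 3. Its highest and lowest values were thus both aged. Aged replicate 1 was 5.08 times the young mean of 4.40 ± 0.391 (SD, n = 3), while the mean of aged replicates 2 and 3, at 2.25, was 0.511 times it. Of the 66 genes whose mean signal was 1 or more, 6 (9.09%) had this order, with aged replicate 1 above all young samples and aged replicates 2 and 3 below all of them, and Myc was the 1 member among them. Because the table holds genes with a higher mean of the 3 aged samples, a gene with low values in aged replicates 2 and 3 could be in it only with a high value in aged replicate 1.

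**Figure D1:**
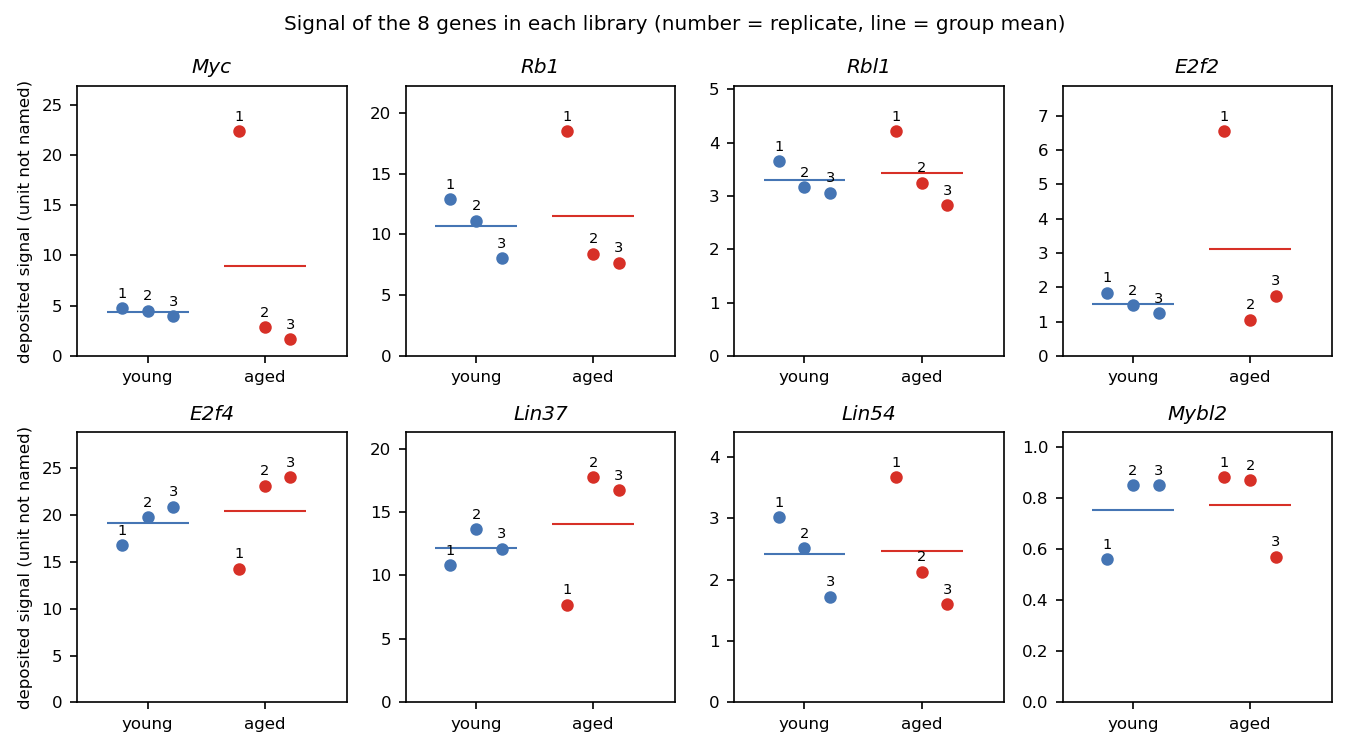
Deposited signal (y axis, linear from 0, unit not named) of each of the 8 genes in the 3 young (blue) and 3 aged (red) libraries, with replicate numbers beside the points and a line at each group mean. Myc and E2f2 reach 22.39 and 6.55 in aged replicate 1 and lie at or under 4.73 and 1.84 elsewhere, whereas Lin37 and E2f4 have their lowest values, 7.70 and 14.25, in that library.

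The pocket protein genes Rb1 and Rbl1 were highest in aged replicate 1 and lowest in aged replicate 3. Rb1 (19645), which encodes the retinoblastoma protein, was listed at 12.90, 11.13 and 8.03 in the young and at 18.50, 8.42 and 7.65 in the aged samples. Rbl1 (19650), which encodes the relative p107, was listed at 3.65, 3.17 and 3.06 in the young and at 4.22, 3.25 and 2.83 in the aged samples. The groups overlapped for both genes, and without aged replicate 1 the aged mean was 0.752 times the young mean for Rb1 and 0.923 times for Rbl1. Rbl1 had the smallest ratio of aged replicate 1 to the mean of aged replicates 2 and 3 among the 5 tested members that were higher in that library, at 1.39 against 2.30 for Rb1. Exons of Lpar6 and Rcbtb2 on the opposite strand cover 6.78% and 8.11% of the Rb1 exon bases in GENCODE release M21, and whether reads were counted by strand is not stated in the labels or headers, so some signal listed for Rb1 may belong to them.

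The activator E2f2 was highest and the repressor E2f4 lowest in aged replicate 1. E2f2 (242705), whose product activates genes for DNA replication, was listed at 1.84, 1.47 and 1.24 in the young and at 6.55, 1.05 and 1.75 in the aged samples. Aged replicate 1 was 4.32 times the young mean of 1.52 ± 0.303 (SD, n = 3), and aged replicates 2 and 3 lay around the young values, at 0.923 times their mean. E2f4 (104394), the E2F of the DREAM complex, was listed at 16.76, 19.77 and 20.88 in the young and at 14.25, 23.13 and 23.99 in the aged samples. Its lowest value was in aged replicate 1 and its highest values were in aged replicates 2 and 3, whose mean was 1.23 times the young mean.

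The 2 MuvB core genes also diverged. Lin37 (75660) was listed at 10.82, 13.64 and 12.12 in the young and at 7.70, 17.72 and 16.72 in the aged samples. Like E2f4, it was below all young samples in aged replicate 1 and above all of them in aged replicates 2 and 3, at 1.41 times the young mean. This order was found in 21 of the 66 genes (31.8%), so 2 of 7 members is close to the share of the whole table, and the choice of genes for a higher aged mean favours it. Lin54 (231506), which encodes the DNA-binding subunit, was listed at 3.01, 2.51 and 1.72 in the young and at 3.66, 2.13 and 1.60 in the aged samples, in the order of Rb1. Mybl2 (17865), which encodes B-Myb, was listed at 0.56, 0.85 and 0.85 in the young and at 0.88, 0.87 and 0.57 in the aged samples, or 0.753 ± 0.167 against 0.773 ± 0.176 (SD, n = 3 each). It was the 1 member with a mean signal under 1 and is described by its values.

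No member had all 3 aged samples above, or all 3 below, the young samples, while 4 of the 66 genes (6.06%) had all aged samples above. An exact two-sided permutation test of the difference in mean signal gave p from 0.5 for Mybl2 to 1 for Myc and Lin54, and 1 for each of the 8 after Benjamini-Hochberg adjustment, in a design of 3 against 3 that cannot go below 0.1. Without aged replicate 1 the exact p was 0.2 for Myc, E2f4 and Lin37, the smallest that 2 against 3 samples allow, and 0.4 to 0.8 for the other 5 members, with adjusted values from 0.533 to 0.8.

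The second question was whether the aged and young libraries differed beyond the spread between replicates. None of the members did with all 6 libraries. In limma's fit of log2(signal + 1) across the 66 genes, 0 of 7 members and 0 of 66 genes (0%) passed a Benjamini-Hochberg adjusted p of 0.05, and 0 members and 3 genes had an unadjusted p under 0.05. The adjusted p was 0.994 for each of the 7 members. The widest interval was that of Myc, with a log2 change of 0.20 (SE 0.755, 95% interval -1.57 to 1.98), and E2f2 followed at 0.48 (SE 0.475, interval -0.64 to 1.60). Rb1, Rbl1, E2f4, Lin37 and Lin54 had log2 changes from -0.0046 to 0.12, with intervals that reached from -0.86 to 0.92. The median log2 change was 0.063 over the 7 members and 0.12 over the 66 genes. With equal library medians each change was lower by 0.21. Of the 7 members 6 then had a change below 0, with E2f2 at 0.27 as the exception. The table holds genes with a higher aged mean, and equal medians over it remove part of that difference. These signs are therefore not a result.

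**Figure D2:**
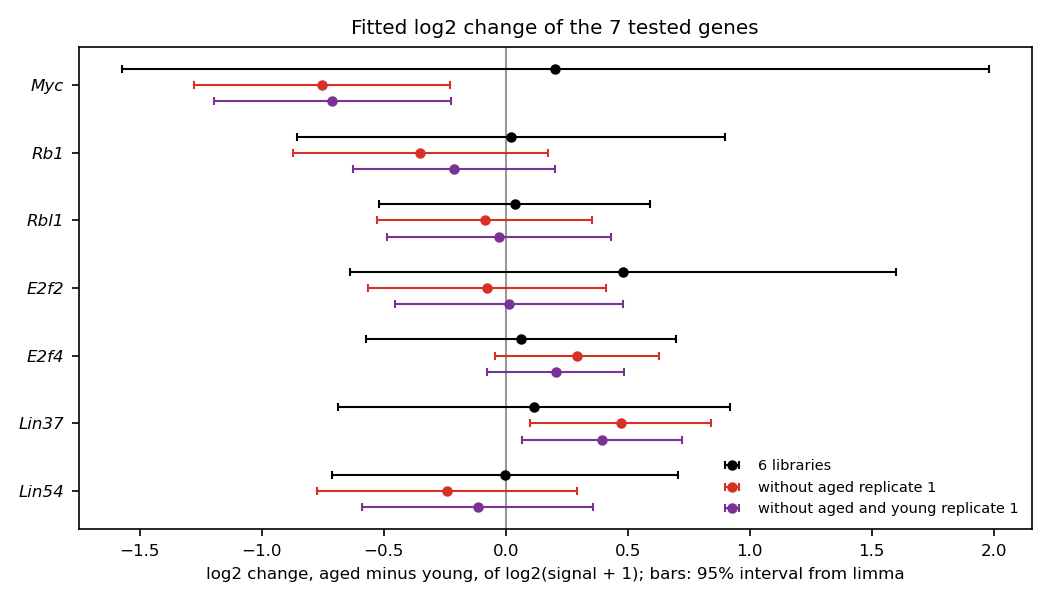
Log2 change, aged minus young, of log2(signal + 1) (x axis) for the 7 tested genes (y axis), with 95% intervals from limma, for all 6 libraries (black), without aged replicate 1 (red) and without replicate 1 of both groups (purple). With all libraries every interval spans 0, and without aged replicate 1 Myc moves to -0.75 and Lin37 to 0.47.

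Without aged replicate 1, Myc was lower in the 2 remaining aged samples. Myc could be in a table of genes with a higher aged mean only through the library left out here, which limits what this fit can show. Its log2 change was -0.75 (SE 0.224, 95% interval -1.28 to -0.23). Limma's adjusted p was 0.0495, next to the threshold, and its alternatives gave 0.0191 to 0.999. Myc was 1 of 15 genes called of 66 (22.7%), and the only one of these called as lower in the aged samples (1.52%). The count of lower calls depended on the setting. With equal library medians as well, which lowered every change, it was 4 of 9 calls. With replicate 1 of both groups left out it was 3 of 24. Lin37 had the next smallest p of the members, with a change of 0.47 (log2, SE 0.158). Its adjusted p of 0.0728 in limma (0.0548 to 0.999 in its alternatives) did not pass. The other 5 members had adjusted p-values from 0.196 for E2f4 to 0.806 for E2f2. Their log2 changes were -0.35 for Rb1, -0.24 for Lin54, -0.087 for Rbl1, -0.077 for E2f2 and 0.29 for E2f4. The median over the 7 members was then -0.087, beside 0.20 over all 66 genes.

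For the 7 tested members young replicate 1 leaned the same way as aged replicate 1. Over all 66 genes this held for 41 (62.1%), and the median log2 deviation was -0.13 for aged and 0.14 for young replicate 1. Both replicate 1 libraries were left out in a fit chosen after seeing the data, with 2 samples in each group. Myc was lower, at -0.71 (log2, SE 0.234, adjusted p = 0.0191 in limma), and it was the 1 member called, among 24 of 66 genes (36.4%). All samples of this fit were also in the fit without aged replicate 1, so it gives no separate support. Lin37, at 0.39 (SE 0.158, adjusted p = 0.0548), did not pass. With aged replicate 1 left out and the library medians set equal, Myc had a log2 change of -0.99 (SE 0.203, adjusted p = 0.0220 in limma). Equal medians lowered the other members' changes as well, Rb1 to -0.59 and E2f2 to -0.31, in a table of genes with a higher aged mean. That value for Myc is thus no stronger result. With array weights, which keep all 6 libraries, Myc had a log2 change of -0.71 and did not pass (SE 0.248, adjusted p = 0.0707).

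Ratios between genes within a library do not depend on how that library was scaled, and 6 ratios, chosen after the values were seen, were compared. They are not a comparison of levels between genes. The ratio of Myc to E2f4 was 0.282, 0.228 and 0.190 in the young and 1.57, 0.122 and 0.0696 in the aged samples. The ratio of Lin54 to Lin37, the 2 MuvB genes, was 0.278, 0.184 and 0.142 in the young and 0.475, 0.120 and 0.0957 in the aged samples. The ratios of Rb1 to E2f4 and of Myc to Rb1 had the same order as these. Aged replicate 1 was above and aged replicates 2 and 3 were below all young samples. For Myc to E2f4 this order followed from the opposite orders of the 2 genes. All 6 ratios reuse the member values given above, so their order and p-values give no support beyond those values. The ratio of the activator E2f2 to the repressor E2f4 was 0.110, 0.0744 and 0.0594 in the young and 0.460, 0.0454 and 0.0729 in the aged samples. Only aged replicate 1 was outside the young range upwards. The ratio of Rbl1 to Rb1 varied least, from 0.228 in aged replicate 1 to 0.386 in aged replicate 2. The exact two-sided permutation p of the aged against the young log2 ratios was 0.9 or 1 for each of the 6, and 1 after adjustment over them. Without aged replicate 1 the exact p was 0.2, the smallest possible, for the 4 ratios of Myc to E2f4, Rb1 to E2f4, Lin54 to Lin37 and Myc to Rb1 (adjusted p = 0.3) and 0.4 for the ratios of E2f2 to E2f4 and Rbl1 to Rb1 (adjusted p = 0.4).

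**Figure D3:**
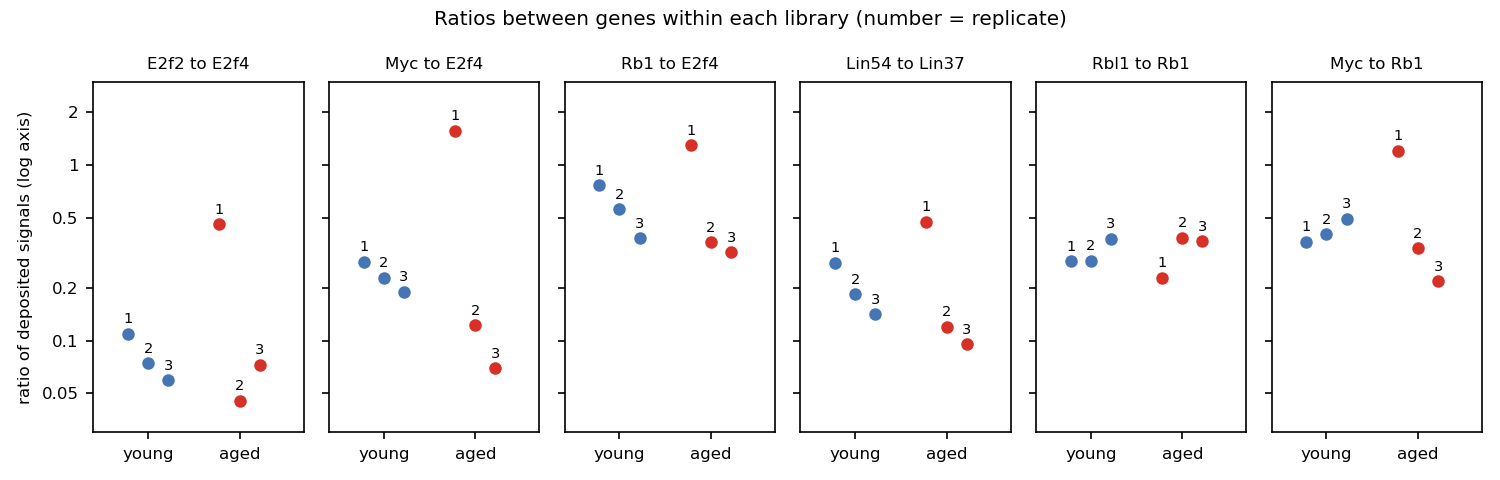
Ratio of the deposited signals of 2 genes within each library (y axis, log scale) for 6 pairs, in young (blue) and aged (red) libraries, with replicate numbers beside the points. In 4 pairs, Myc to E2f4, Rb1 to E2f4, Lin54 to Lin37 and Myc to Rb1, aged replicate 1 is above and aged replicates 2 and 3 are below all young libraries.

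The authors' deposited table gives a p-value and q-value for each gene, and these differ from the fit above. In the authors' deposited table, 5 of the 8 members have a q under 0.05, as do 54 of the 85 genes with a q (63.5%). That table lists Myc at a log2 ratio of aged to young of 0.95 with a q of 1.93e-34 and E2f2 at 1.00 with a q of 5.03e-24. Lin37, E2f4 and Rb1 stand in the authors' deposited table at log2 ratios of 0.24, 0.12 and 0.093 with q-values of 0.00649, 0.0260 and 0.0454, whereas Lin54, Rbl1 and Mybl2 have q-values from 0.332 to 0.927. The labels and headers do not name the authors' test. For Myc and E2f2 the log2 ratio of the group means computed here was 1.03 and 1.04, close to the authors' values, and it rested on aged replicate 1, since without that library the aged mean was below the young mean for both genes.

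Other genes of the pathway came from 10 lists of pocket protein, E2F, MuvB, Myc network, cyclin, kinase, kinase inhibitor and cell cycle target genes. Of 56 listed genes that are no members, 8 were in the table and 4 had a mean of at least 1, namely Cdkn1a, Cdkn2b, Ccnd3 and Ccna2. With all libraries 0 of the 4 were called. Without aged replicate 1, 15 of the 66 genes (22.7%) were called, 14 of them higher in the aged samples. Of the 4 listed genes, 3 were called, each higher in the aged samples, in a table that favours such genes. These were the kinase inhibitor genes Cdkn1a (1.76 in log2, SE 0.158, adjusted p = 0.000511 in limma) and Cdkn2b (0.89, SE 0.259, adjusted p = 0.0473), which act upstream of the pocket proteins, and the D-type cyclin gene Ccnd3 (0.73, SE 0.115, adjusted p = 0.00525). Over the alternatives the adjusted p in limma reached 0.999 for each of them. Its lowest value was 2.77e-12 for Cdkn1a, 0.00191 for Cdkn2b and 1.66e-07 for Ccnd3, each without replicate 1 of both groups. That fit was chosen after seeing the data and had only 2 samples in each group, so these low values carry little weight. Ccna2, the S-phase cyclin gene and a known E2F and DREAM target, was listed at 1.46, 1.25 and 0.58 in the young and at 2.88, 1.23 and 1.02 in the aged samples, with a log2 change of 0.043 (SE 0.226) without aged replicate 1. The other targets in the table were low. Ccnb2, a mitotic cyclin gene, was listed at 0.58, 0.20 and 0.55 in the young and at 1.82, 0.48 and 0.39 in the aged samples. Chek1, which encodes a replication checkpoint kinase, was listed at 0.47, 0.13 and 0.12 in the young and at 0.48, 0.29 and 0.27 in the aged samples. The G1 cyclin genes Ccne1 and Ccne2 had signals of at most 0.66 and 0.85. Of these 8 genes, Ccna2, Ccnb2, Ccne2 and Chek1 had their highest value in aged replicate 1. Ccne1, Ccnd3, Cdkn1a and Cdkn2b did not. Aged replicate 1 was above all young samples for 29 of the 66 genes with a mean of at least 1 (43.9%) and for 5 of the 7 tested members.

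Each tested member was compared with the other genes of the table by the root mean square difference of its log2(signal + 1) values over the 6 samples, after each gene's own mean was removed, which describes likeness and has no test. Among the nearest genes that are no members were Tgfbr1 (0.218) and Gadd45b (0.384) for Myc, Pik3r1 (0.107) for Rb1, and Map2k1 (0.0479) and Atm (0.111) for Rbl1. For E2f2 they were Pik3r1 (0.318) and Zfp36l1 (0.335), a looser match than for the pocket protein genes. For Lin54 Ppp3cb (0.110) was among them, for E2f4 H2-T10 (0.0830) and Rad9a (0.112), and for Lin37 the MHC class I genes H2-T23 (0.0666) and H2-Q4 (0.109). H2-T23 was listed at 58.23, 64.65 and 61.49 in the young and at 39.36, 84.32 and 88.91 in the aged samples. Among the members themselves, Rb1 and Lin54 were nearest to each other (0.143), as were E2f4 and Lin37 (0.151), while Myc was 0.506 away from its nearest member, E2f2. All distances share the same 6 libraries. Without aged replicate 1, 10 of the 14 nearest genes were the same, and Rb1 and Lin54 (0.0738) and E2f4 and Lin37 (0.122) were again nearest to each other. For E2f2, Pik3r1 and Zfp36l1 gave way to Atm (0.137) and Zfp36l2 (0.182), and its nearest member was Rbl1 (0.188). For Myc the nearest member was then Rb1 (0.270), and Gadd45b (0.176) and Tgfbr1 (0.218) were again its nearest other genes.

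Both replicate 1 libraries deviated in the same direction from the rest of their group for the tested members. On the log2(signal + 1) scale, aged replicate 1 differed from the average of the other 2 aged libraries by 2.87 for Myc, 1.67 for E2f2, 1.11 for Rb1, 0.71 for Lin54 and 0.37 for Rbl1, and by -0.69 for E2f4 and -1.07 for Lin37. Myc had the second largest such difference in size of the 66 genes and E2f2 ranked 12, where the median size was 0.84. Young replicate 1 differed from the average of the other 2 young libraries by 0.13 for Myc, 0.27 for E2f2, 0.41 for Rb1, 0.38 for Lin54, 0.18 for Rbl1, -0.26 for E2f4 and -0.23 for Lin37. The sign was thus the same in both groups for 7 of 7 tested members, and for 41 of all 66 genes (62.1%). Mybl2, below the filter, had 0.13 for aged and -0.25 for young replicate 1. Aged replicates 2 and 3 differed from each other by a median size of 0.15 over the 66 genes, and young replicates 2 and 3 by 0.16.

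**Figure D4:**
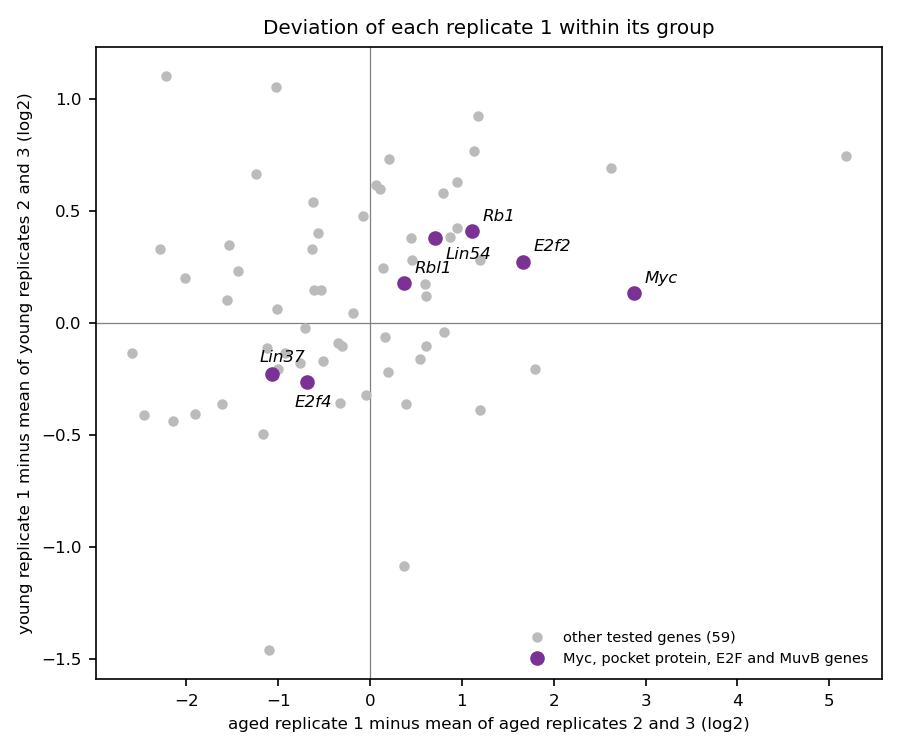
Difference of aged replicate 1 from the average of the other 2 aged libraries (x axis) against that of young replicate 1 from the other 2 young libraries (y axis), both in log2(signal + 1), for the 66 tested genes. The 7 labelled genes lie in the upper right (Myc, E2f2, Rb1, Lin54, Rbl1) or the lower left (E2f4, Lin37), with Myc far to the right at 2.87 and only 0.13 on the y axis.

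Transcript length differed between the members that were higher and lower in each replicate 1, with Myc and Mybl2 apart from the others. In GENCODE release M21 the longest coding transcript is 4656 bases for Rb1, 4862 for Rbl1, 4739 for E2f2 and 4592 for Lin54, which were higher in each replicate 1, and 1993 for E2f4 and 1312 for Lin37, which were lower. Myc, at 2338 bases, was higher and is near the median of 2449 over the 62 tested genes with such a transcript. The GC content was 41.2% for Rb1, 42.1% for Rbl1 and 41.8% for Lin54, and 56.1% for E2f4 and 56.3% for Lin37, beside a median of 51.6%. Mybl2, at 3651 bases and 56.3% GC, was higher in aged and lower in young replicate 1. E2f2, at 56.6%, and Myc, at 53.3%, were above that median and yet higher in each replicate 1. The part of length and GC content in the members' values was not tested.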

How the data were processed

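Messenger RNA of 3 young and 3 aged mouse brain samples was sequenced after Trizol extraction and oligo(dT) selection, per the labels' protocols. The deposited values are the authors' expression signal, given to 2 decimals. The labels and headers do not name its unit, scaling, aligner, counting or genome build. The same table, per the file headers, holds the authors' log2 ratio, p-value and q-value, from a test that is not named. With no known depth, counting error was not estimated.

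Groups came from the sample titles. The design allowed for counts or a normalized unit, and the test for the latter was used. The 66 of 88 genes whose mean over the 6 samples was 1 or more were fitted as log2(signal + 1) with limma 3.58.1 in R 4.3.3 (eBayes with trend, no covariate), with Benjamini-Hochberg adjustment over the 66 at 5%. Such changes understate those of low genes. The fit was run on simulated data with planted changes and normal noise at the spread of the young samples. The simulated data held no outlying library like aged replicate 1, so they do not show how the fit behaves with one. Exact permutation tests used scipy 1.17.1 in Python 3.11.15. All members are described, with all listed pathway genes in the table and the 2 nearest genes per member, of which 1 gene is not reported here. The members, lists and alternatives were chosen with earlier results of these data known. Alternatives were a 10% false discovery rate, libraries left out singly, aged replicate 1 left out with equal medians, a replicate block, array weights, eBayes with no trend, a minimum mean of 5 or none, a pseudocount of 0.1 and equal medians. Leaving out replicate 1 of both groups, and aged replicate 1 from the exact tests, nearest genes and spreads, was added after seeing the data. The transcript and overlap values came from GENCODE release M21 and the promoters from RefSeq (GRCm38.p6).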

Additional observations from a re-analysis of the deposited data

How the results depend on the processing

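The count of called genes, 0 with all 6 libraries, ran from 0 to 15 with 1 library left out, and the count of called members from 0 to 1; only leaving out aged replicate 1 gave calls. Of the other alternatives, array weights (whose estimate stopped short of its tolerance) called 15 genes and 0 members. Aged replicate 1 left out with equal medians called 9 genes and 1 member, and replicate 1 of both groups left out called 24 genes and 1 member. That member was Myc each time. Equal medians, a pseudocount of 0.1, no filter, a minimum mean of 5, eBayes with no trend and a 10% false discovery rate called 0 genes. With the replicate block 0 genes and 0 members were called, and Myc had a log2 change of 0.20. The block lowered the SE of each tested member, from 0.755 to 0.631 for Myc and from 0.372 to 0.253 for Rb1. The lowest adjusted p of the 66 genes in limma was 0.150 with the block and 0.444 in the main fit. Deviations of same-numbered samples from their group means correlated across the 66 genes at r = 0.271, 0.0908 and 0.408 for numbers 1 to 3, and not every r was over 0.1, so the samples were taken to share only a number. Aged replicates 1 and 3 correlated best with the young sample of their own number, and aged replicate 2 with young replicate 3 (r = 0.254). The fits other than the replicate block take the samples as unpaired.

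The sign of the small log2 changes was not stable. With 1 library left out they ran from -0.75 to 0.81 for Myc, -0.35 to 0.24 for Rb1, -0.087 to 0.14 for Rbl1, -0.077 to 0.86 for E2f2, -0.064 to 0.29 for E2f4, -0.082 to 0.47 for Lin37 and -0.24 to 0.18 for Lin54, the lower end for Myc, Rb1, Rbl1, E2f2 and Lin54 and the upper end for E2f4 and Lin37 being without aged replicate 1. With equal medians Myc was at -0.0044, Rb1 at -0.19, Rbl1 at -0.17, E2f4 at -0.14 and Lin37 at -0.092. Equal medians over genes with a higher aged mean lowered all changes, so these signs are not a result. With array weights Myc was at -0.71, Rb1 at -0.29 and Rbl1 at -0.052. With aged replicate 1 left out and equal medians Myc was at -0.99, Rb1 at -0.59, Rbl1 at -0.32 and E2f2 at -0.31. With replicate 1 of both groups left out Myc was at -0.71, Rb1 at -0.21 and Rbl1 at -0.028. E2f2, Lin54 and Rbl1 have no value at a minimum mean of 5. The cause of these changes was not tested beyond the libraries left out.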

Other observations

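The KEGG terms in the table separate the members into those shared with the cell cycle pathway and those without. Myc, Rb1, Rbl1, E2f2 and E2f4 carry the cell cycle term and are 5 of the 21 genes of the authors' cell cycle table, whereas Lin37, Lin54 and Mybl2 carry the cellular senescence term alone. Rbl1 and E2f4 also carry the TGF-beta signalling term, as does Myc, which has 12 terms in all.

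The spread between replicates was wider among aged than among young samples for all 8 members, with a coefficient of variation of 130% against 8.88% for Myc, 96.1% against 19.96% for E2f2 and 22.8% against 22.2% for Mybl2. This held for 53 of the 66 genes with a mean of at least 1, with a median of 38.3% among aged and 18.2% among young samples. It rested on aged replicate 1. Without that library the coefficient of variation was wider among aged samples for 4 of the 8 members and 14 of the 66 genes, with an aged median of 8.13%. It was then 36.5% for Myc, 35.4% for E2f2 and 29.5% for Mybl2. These values set 2 aged against 3 young samples, so they do not show a narrower spread among aged samples. Replicates 2 and 3 differed by a median log2 size of 0.15 among aged and 0.16 among young samples.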
